A study of Mus musculus with 6 samples.

Results

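The elastic fibre and microfibril genes were examined in the RNA of mouse hearts after infusion of angiotensin II (Ang II), with and without tectochrysin (Tec), a plant flavonoid. The genes were chosen by name as Eln, Fbn1, Fbn2, Fbln1, Fbln2, Fbln5, Mfap2, Mfap4, Mfap5 and Emilin1, and each was found in 1 row of the table of 30914 genes. The Ang II group consisted of 3 male wild-type C57BL/6J mice, 8 weeks old at the start, that received Ang II from subcutaneous osmotic pumps at 1 μg/kg/min for 4 weeks. The Ang II + Tec group consisted of 3 such mice on the same infusion, which were also given Tec intraperitoneally at 5 mg/kg per day over the final 2 weeks. Both groups therefore carried the Ang II infusion, and libraries of hearts without Ang II were not analysed here, so a level in either group cannot be called raised or normal.

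Elastic fibres give the walls of vessels, the valves and the interstitium of the heart their recoil. Fibroblasts and smooth muscle cells secrete tropoelastin, the product of Eln, onto a scaffold of microfibrils built from fibrillins, and fibulins and lysyl oxidases then bring the monomers together and cross-link them. Microfibrils also bind latent TGF-β, and the synthesis of their components is known to increase when cardiac fibroblasts are activated in pressure overload.

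Levels are given as FPKM, the fragments per kilobase of transcript scaled to the mapped fragments of the library, which are corrected for length and may be compared between genes. Of the 10 genes, 9 exceeded the limit for testing of 0.5 FPKM in at least 3 libraries, and these 9 were at 1.01 FPKM or more in all 6 libraries, so that none of them was tested through a single group. Fbn2 did not reach it. Differences between the groups are log2 fold changes on the scale of log2(FPKM + 1), Ang II + Tec minus Ang II, with a standard error and a 95% interval from limma, adjusted over 13089 tested genes. This scale understates the change of genes with a low FPKM.

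The libraries within the groups were not alike. The summed FPKM of the 10 genes was 228.9, 381.8 and 54.7 in Ang II replicates 1, 2 and 3 and 50.5, 94.1 and 48.8 across the treated hearts. Ang II replicate 3 thus lay with the treated hearts, and the values without it are given for each tested gene. It was singled out by the values of these same genes. The p-values without it therefore describe how far the results hang on that library and are not support for a difference. The 6 markers of ventricular cardiomyocytes summed to between 3563 and 5228 FPKM, so the labelled tissue was present in all libraries. The 5 markers of atrial myocardium (Myl7, Myl4, Sln, Bmp10 and Stard10) summed to 658.7, 820.3 and 9.11 FPKM across the Ang II hearts and to 7.76, 1623 and 12.0 FPKM across the treated hearts. Myl7, which encodes the atrial myosin light chain, was listed at 0 in Ang II replicate 3 and Ang II + Tec replicate 1. The 3 libraries with atrial transcripts were also the 3 with the highest sums of the elastic fibre genes, and the part of this in the results was not tested. Transcripts of the mitochondrial genome took 40.1% to 48.9% of the FPKM without Tec and 49.6% to 52.5% with it.

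All 9 tested genes were lower on average after Tec, where 80% of all tested genes were lower. Their median log2 fold change was -1.24, against -0.17 over all tested genes, and 7 of the 9 were at -1 or below, against 1.47% of all tested genes. A gene was called when its adjusted p-value was under 0.05 and its log2 fold change was 1 or more in size, and 0 of the 9 were called (limma, Benjamini-Hochberg), against 0.0764% of all tested genes called lower. The adjusted p-values lay between 0.231 and 0.428. At an unadjusted p-value under 0.05 there were 4 genes (Mfap5, Fbn1, Mfap2 and Emilin1), where 16.5% of all tested genes were lower at that limit. The groups overlapped for each of the 9, whereas 18.9% of all tested genes were lower without overlap. In bulk RNA of this kind, fewer cells of a type and less RNA per cell cannot be told apart.

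**Figure D1:**
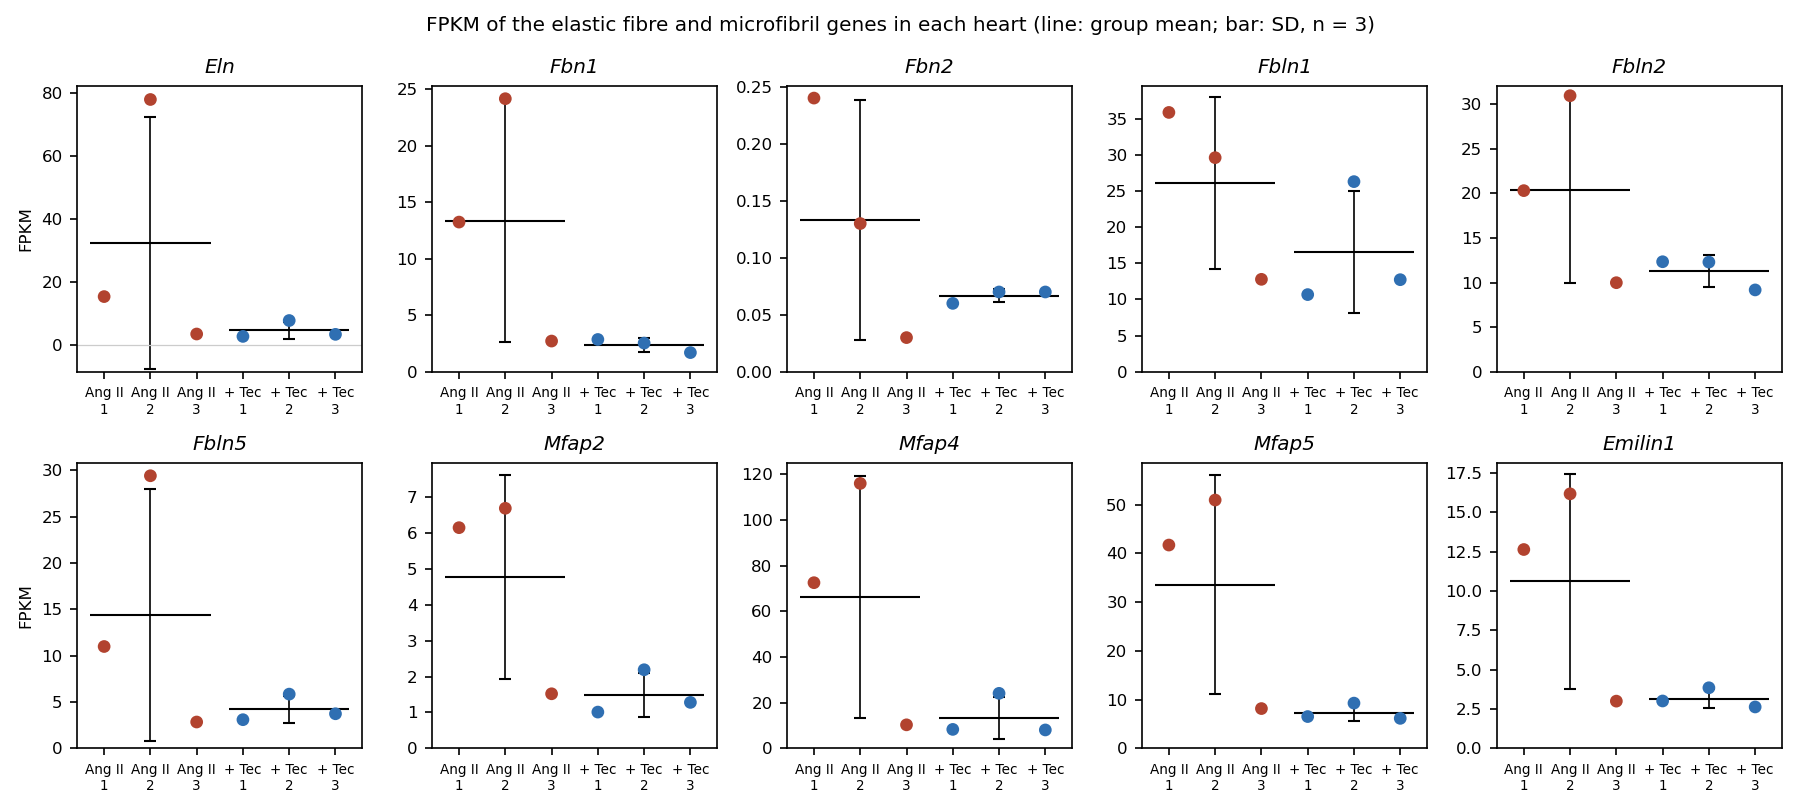
FPKM of each gene (vertical axis, linear, a separate scale in each panel) in the 3 Ang II hearts (red) and the 3 Ang II + Tec hearts (blue), with a line at the group mean and a bar for the SD (n = 3). In each panel Ang II replicates 1 and 2 lie above the 3 treated hearts, and Ang II replicate 3 lies within or below their range.

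The outcome rested on Ang II replicate 3. Its FPKM was between the lowest and the highest treated heart for 8 of the 10 genes and was under the lowest for Fbln5 and Fbn2. In contrast, Ang II replicates 1 and 2 exceeded all 3 treated hearts for all 10 genes, by between 1.13 times for Fbln1 and 4.63 times for Fbn1 when the lower of the former was set against the highest of the latter. Without Ang II replicate 3, 8 of the 9 genes were called lower, all but Fbln1 (limma adjusted p-value 0.0520), where 3.71% of the 12900 genes then tested were called lower. The groups then did not overlap for any of the 9, which follows from the order just given and adds nothing to it. The same held for 53.6% of all genes tested. The median of the 9 was -1.91, with -0.24 over all genes. Without Ang II replicate 2, whose values were the highest for 8 of the 10 genes, the median was -0.80 and 0 of the 9 were called (limma, with 0 at an unadjusted p-value under 0.05).

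**Figure D2:**
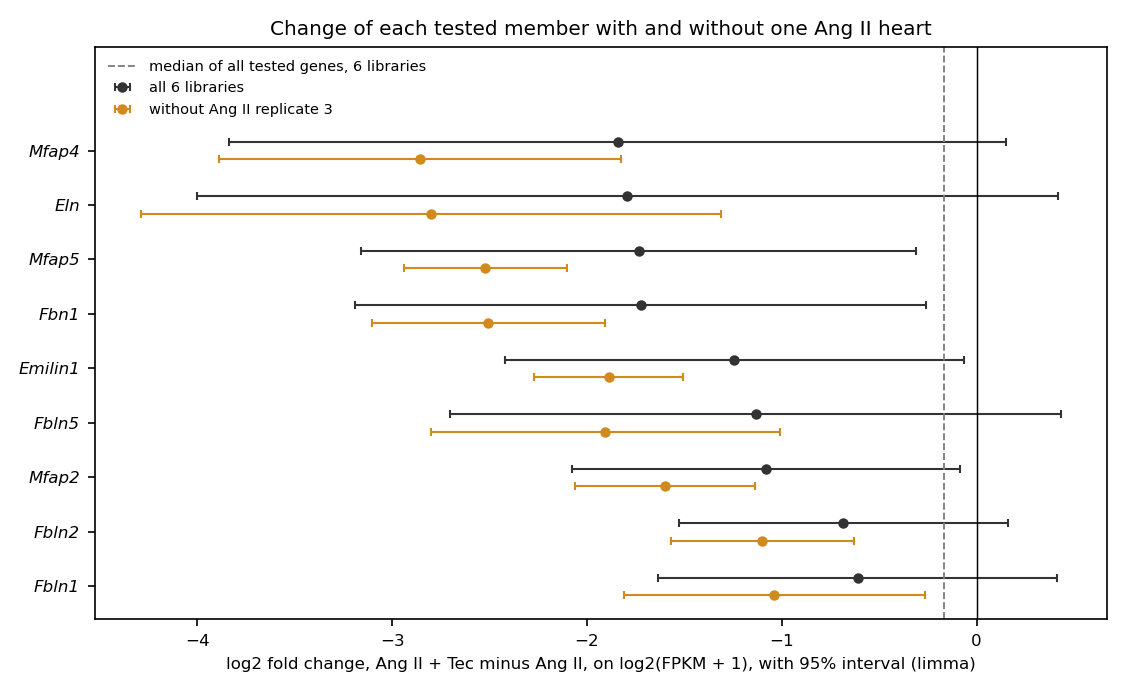
Log2 fold change of the 9 tested genes (horizontal axis, Ang II + Tec minus Ang II on log2(FPKM + 1)) with its 95% interval from limma, for all 6 libraries (dark) and without Ang II replicate 3 (orange). With all libraries the intervals of Mfap4, Eln, Fbln5, Fbln2 and Fbln1 reach 0, and without Ang II replicate 3 those of all 9 genes lie below it.

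Elastin itself was the most variable of the genes. Eln (ENSMUSG00000029675, chromosome 5 from 134702593 to 134747323, minus strand) encodes the protein core of the elastic fibre, in 37 exons of its coding transcript. It had 15.3, 77.8 and 3.40 FPKM across the Ang II hearts and 2.64, 7.68 and 3.29 FPKM across the treated hearts. Ang II replicate 2 stood alone at the top, 5.09 times Ang II replicate 1 and 22.9 times Ang II replicate 3, while the highest treated heart was 2.91 times the lowest. The group means were 32.2 ± 40.0 FPKM (SD, n = 3) and 4.54 ± 2.74 FPKM (SD, n = 3), so the SD of the Ang II group exceeded its mean. The log2 fold change was -1.79 (standard error 0.94, 95% interval -4.00 to 0.42, limma adjusted p-value 0.324), and it was -2.80 without Ang II replicate 3 and -0.72 when replicate 2 was left out instead.

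Of the smooth muscle markers, Cnn1, Tagln, Acta2 and Des were highest in the same library as Eln, and Myh11 and Smtn were not. The 6 markers (Myh11, Cnn1, Tagln, Acta2, Smtn and Des) summed to 1038 FPKM in Ang II replicate 2, against 413.7 to 714.4 FPKM in the other 5 libraries, but most of this sum was Des, desmin, which cardiomyocytes also express. Without Des, left out after the values were seen, the sum was 154.3, 335.6 and 111.5 FPKM across the Ang II hearts and 66.0, 258.3 and 94.7 FPKM across the treated hearts, so Ang II + Tec replicate 2 was second to Ang II replicate 2. Cnn1, a calponin of contractile smooth muscle, had 5.54, 30.5 and 1.76 FPKM across the Ang II hearts and 0.640, 9.91 and 1.99 FPKM in the treated hearts. Like Eln, it was highest in Ang II replicate 2 and, among the treated hearts, in replicate 2. The same held for Tagln, with 137.5 and 74.6 FPKM in these 2 libraries, and for Acta2, with 135.95 and 127.96 FPKM. Myh11, the smooth muscle myosin heavy chain, and Smtn, smoothelin, did not follow this order. Myh11 had 18.95 FPKM in Ang II + Tec replicate 2 and 12.4 FPKM in Ang II replicate 2, and Smtn had 26.9 and 19.2 FPKM in these libraries. The part of vessel wall in the Eln values was not tested.

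Of the fibrillins, which polymerise into the microfibril, the heart libraries held almost only Fbn1. Fbn1 (ENSMUSG00000027204, chromosome 2 from 125300594 to 125507993, minus strand, 66 exons) had 13.2, 24.2 and 2.72 FPKM across the Ang II hearts. In the Ang II + Tec replicates it had 2.86, 2.54 and 1.70 FPKM, which made it a gene for which Ang II + Tec replicate 2 was not the highest treated heart. Of the treated hearts, replicate 1 exceeded Ang II replicate 3 and replicates 2 and 3 did not. The group means were 13.4 ± 10.7 and 2.37 ± 0.599 FPKM (SD, n = 3), with a log2 fold change of -1.72 (standard error 0.62, 95% interval -3.19 to -0.26, limma adjusted p-value 0.235). It was -2.51 without Ang II replicate 3, with a standard error of 0.26, and -1.13 when replicate 2 was left out instead. Fbn2 (ENSMUSG00000024598, chromosome 18 from 58008623 to 58210487, minus strand), the fibrillin known mainly from development, had 0.240, 0.130 and 0.0300 FPKM across the Ang II hearts and 0.0600, 0.0700 and 0.0700 FPKM across the treated hearts. At these values, which the table rounds to hundredths, it was not tested, and Ang II replicate 3 was the lowest of the 6 libraries.

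The microfibril-associated glycoproteins MAGP-1 and MAGP-2, small proteins that bind fibrillin, are encoded by Mfap2 and Mfap5. Mfap5 (ENSMUSG00000030116, chromosome 6 from 122505845 to 122528766, plus strand) had 41.7, 51.0 and 8.16 FPKM across the Ang II hearts and 6.52, 9.28 and 6.15 FPKM across the treated hearts. It had the lowest adjusted p-value of the 9 genes, with means of 33.6 ± 22.5 and 7.32 ± 1.71 FPKM (SD, n = 3) and a log2 fold change of -1.73 (standard error 0.61, 95% interval -3.16 to -0.31, limma adjusted p-value 0.231). Mfap2 (ENSMUSG00000060572, chromosome 4 from 141010418 to 141015814, plus strand) was expressed at a lower level, at 6.15, 6.69 and 1.52 FPKM and at 1.01, 2.19 and 1.28 FPKM. Its Ang II replicates 1 and 2 were nearly equal, with a ratio of 1.09 where that of Eln was 5.09. The log2 fold change of Mfap2 was -1.08 (standard error 0.42, 95% interval -2.08 to -0.09, limma adjusted p-value 0.2499). Without Ang II replicate 3, Mfap5 changed by -2.52 (limma adjusted p-value 0.000558) and Mfap2 by -1.60 (limma adjusted p-value 0.00362). When replicate 2 was left out instead, Mfap5 changed by -1.27 and Mfap2 by -0.80.

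Mfap4, a fibrinogen-related protein that binds elastin and fibrillin, was the most abundant of the genes in Ang II replicates 1 and 2. Mfap4 (ENSMUSG00000042436, chromosome 11 from 61485431 to 61488900, plus strand) had 72.5, 115.9 and 10.3 FPKM across the Ang II hearts and 8.28, 24.1 and 8.04 FPKM across the treated hearts. Ang II + Tec replicate 2 was 2.99 times the lowest treated heart and exceeded Ang II replicate 3. The means were 66.2 ± 53.1 and 13.5 ± 9.18 FPKM (SD, n = 3), and the log2 fold change of -1.84 had a standard error of 0.85 (95% interval -3.84 to 0.15, limma adjusted p-value 0.288). It was -2.86 (limma adjusted p-value 0.00683) without Ang II replicate 3 and -1.17 when replicate 2 was left out instead. Mapk7 overlaps Mfap4 on the opposite strand, and at a highest value of 2.21 FPKM it was below Mfap4 in every library.

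The 3 fibulins are described in the order of their fold changes. Fbln5 (ENSMUSG00000021186, chromosome 12 from 101746565 to 101819055, minus strand), which tethers tropoelastin to cells and microfibrils, had 11.0, 29.4 and 2.84 FPKM across the Ang II hearts and 3.09, 5.85 and 3.73 FPKM in the treated hearts. Ang II replicate 3 was the lowest of the 6 libraries. Its log2 fold change was -1.13 (standard error 0.67, 95% interval -2.70 to 0.43, limma adjusted p-value 0.362), and it was -1.91 (limma adjusted p-value 0.0136) without Ang II replicate 3 and -0.41 when replicate 2 was left out instead. Fbln2 (ENSMUSG00000064080, chromosome 6 from 91212455 to 91272540, plus strand), a fibulin of basement membranes and of the elastic fibre surface, had 20.3, 30.95 and 9.99 FPKM and 12.3, 12.3 and 9.18 FPKM, with a log2 fold change of -0.68 (standard error 0.36, 95% interval -1.53 to 0.16, limma adjusted p-value 0.324). It was -1.10 (limma adjusted p-value 0.0104) without Ang II replicate 3 and -0.33 when replicate 2 was left out instead. The treated hearts were close together for Fbln2, with the highest at 1.34 times the lowest. Fbln1 (ENSMUSG00000006369, chromosome 15 from 85205949 to 85286535, plus strand), which binds fibronectin and proteoglycans, had 35.8, 29.6 and 12.8 FPKM and 10.7, 26.3 and 12.7 FPKM. Ang II + Tec replicate 2 nearly reached Ang II replicate 2 here, and the log2 fold change of -0.61 (standard error 0.44, 95% interval -1.63 to 0.41, limma adjusted p-value 0.428) was the smallest of the 9. It was -1.04 without Ang II replicate 3 and -0.33 when replicate 1 was left out instead, the ends of its leave-one-out range.

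Emilin1, a glycoprotein of the interface between elastin and microfibrils that restrains TGF-β processing, was close to the median of the group. Emilin1 (ENSMUSG00000029163, chromosome 5 from 30913402 to 30921277, plus strand) had 12.6, 16.2 and 3.00 FPKM across the Ang II hearts and 3.01, 3.85 and 2.63 FPKM across the treated hearts. The third Ang II value lay between the treated values. The log2 fold change was -1.24 (standard error 0.50, 95% interval -2.42 to -0.07, limma adjusted p-value 0.257), and it was -1.89 (standard error 0.16, limma adjusted p-value 0.0014) without Ang II replicate 3. It was -0.84 when replicate 2 was left out instead.

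**Figure D3:**
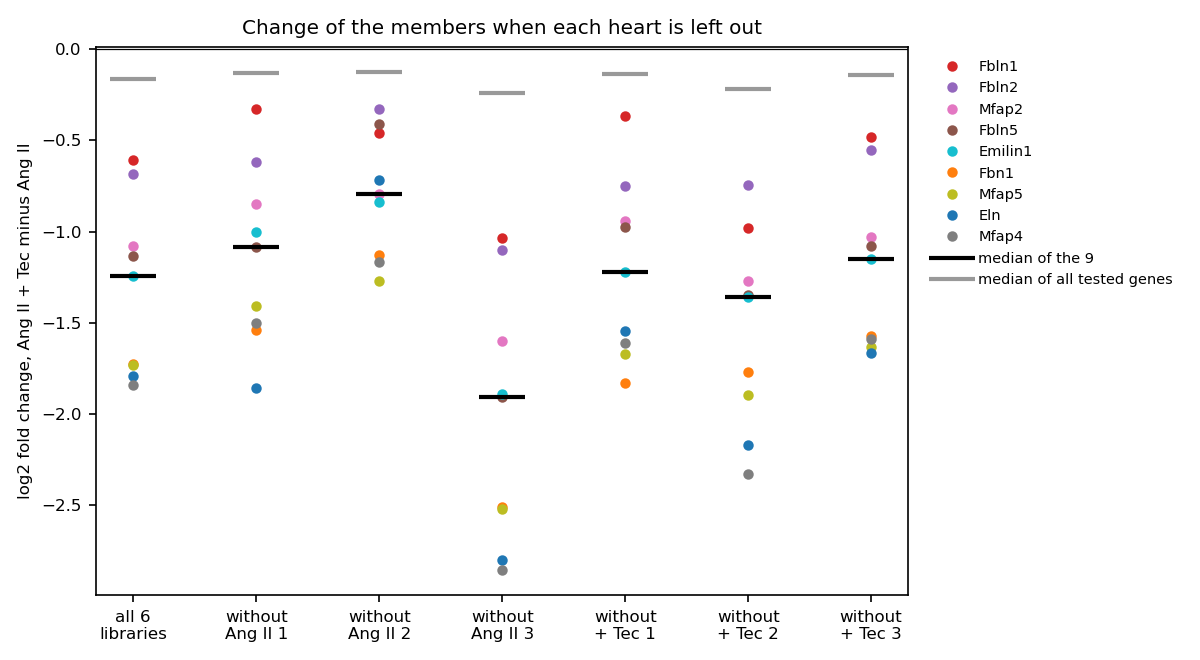
Log2 fold change (vertical axis, Ang II + Tec minus Ang II) of the 9 tested genes as coloured points, with all libraries and with each heart left out in turn. Black bars mark the median of the 9, which was lowest at -1.91 (Ang II replicate 3 left out) and highest at -0.80 (Ang II replicate 2 left out), and grey bars mark the median of all tested genes.

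The promoters of the genes were read for short motifs. RefSeq windows on GRCm38.p6, from 250 bases before to 50 bases after a start, were matched by symbol for 6 of the 10 genes (Fbn1, Mfap2, Emilin1, Fbln2, Fbln5 and Fbln1) and gave 9 windows, since some genes have more than 1 start. The bases upstream of a start are shown for Mfap2, which was among the 4 genes with an unadjusted p-value under 0.05, and for Fbln5 and Fbln1, of which Fbln1 had the smallest change of the 9. They were picked, with the values known, because these windows lie wholly or almost wholly outside the annotated gene. The windows are chr4:141010174-141010423 (plus strand), chr12:101819120-101819369 (minus strand) and chr15:85205699-85205948 (plus strand), and capitals mark a match to a searched motif on either strand.
Mfap2: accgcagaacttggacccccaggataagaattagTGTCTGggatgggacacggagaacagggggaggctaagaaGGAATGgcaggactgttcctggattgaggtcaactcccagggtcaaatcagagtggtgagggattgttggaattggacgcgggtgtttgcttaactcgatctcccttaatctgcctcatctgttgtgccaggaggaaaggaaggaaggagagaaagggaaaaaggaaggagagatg
Fbln5: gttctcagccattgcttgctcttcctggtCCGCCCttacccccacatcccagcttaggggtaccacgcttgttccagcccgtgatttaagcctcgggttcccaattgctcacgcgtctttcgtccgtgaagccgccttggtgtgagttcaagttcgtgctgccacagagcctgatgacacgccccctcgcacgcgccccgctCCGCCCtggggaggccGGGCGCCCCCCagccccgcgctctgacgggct
Fbln1: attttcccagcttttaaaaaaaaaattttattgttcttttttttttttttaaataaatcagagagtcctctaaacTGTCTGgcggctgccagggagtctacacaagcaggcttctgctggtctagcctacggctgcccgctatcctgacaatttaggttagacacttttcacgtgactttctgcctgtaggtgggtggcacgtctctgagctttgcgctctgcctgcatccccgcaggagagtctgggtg
In the Mfap2 window the capitals are CAGACA, which holds the CAGA letters of SMAD binding elements, on the opposite strand 216 bases before the start, and GGAATG, the core bound by TEAD factors, 176 bases before it. The Fbln1 window held CAGACA on the opposite strand 175 bases before the start. The Fbln5 window held GGGCGG, the GC box of Sp1, on the opposite strand at 221 and 48 bases before the start, and the outline of NFκB sites (GGG and CC around 5 free bases) at 32 and 31 bases before it, where the 2 matches overlap.

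Over the 9 windows, CAGACA was found in 5, where 21.04% of all 32851 promoter windows held it. The NFκB outline was found in 6, against 50.8% of all windows, and GGGCGG in 5, against 35.7%. Some matches to that outline in Fbln2 and Fbln1 overlap GGGCGG matches, and the 2 windows of Mfap2 and of Fbln1 share bases, so the windows are not independent. GGAATG was found in 1 window (14.7% of all), and TATAAA (13.6%), TGANTCA (7.81%) and the CArG box (1.63%) in 0. These matches describe letters and do not show a binding site.

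The order of the levels differed between the libraries. In the Ang II group the means ran from Mfap4 (66.2 FPKM) over Mfap5 (33.6), Eln (32.2), Fbln1 (26.1), Fbln2 (20.4), Fbln5 (14.4), Fbn1 (13.4), Emilin1 (10.6) and Mfap2 (4.79) to Fbn2 (0.133), all as mean FPKM. In the Ang II + Tec group they ran from Fbln1 (16.6 FPKM) over Mfap4 (13.5), Fbln2 (11.3), Mfap5 (7.32), Eln (4.54), Fbln5 (4.22), Emilin1 (3.16), Fbn1 (2.37) and Mfap2 (1.49) to Fbn2 (0.0667). The ranges of neighbours in both orders overlapped except for Mfap2 and Fbn2. Within a library, however, Mfap4 exceeded Mfap5 in all 3 Ang II hearts and Fbln1 exceeded Mfap4 in all 3 treated hearts.

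As a share of the summed FPKM of the 10 genes, Mfap4 took 31.7%, 30.4% and 18.8% across the Ang II hearts and 16.4%, 25.6% and 16.5% across the treated hearts. Fbln1 took 15.7%, 7.75% and 23.4% and 21.1%, 27.9% and 26.1%. Ang II replicate 3 thus resembled the treated hearts in composition as well as in level. Eln took 20.4% in Ang II replicate 2 and between 5.23% and 8.16% in the other 5 libraries.

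**Figure D4:**
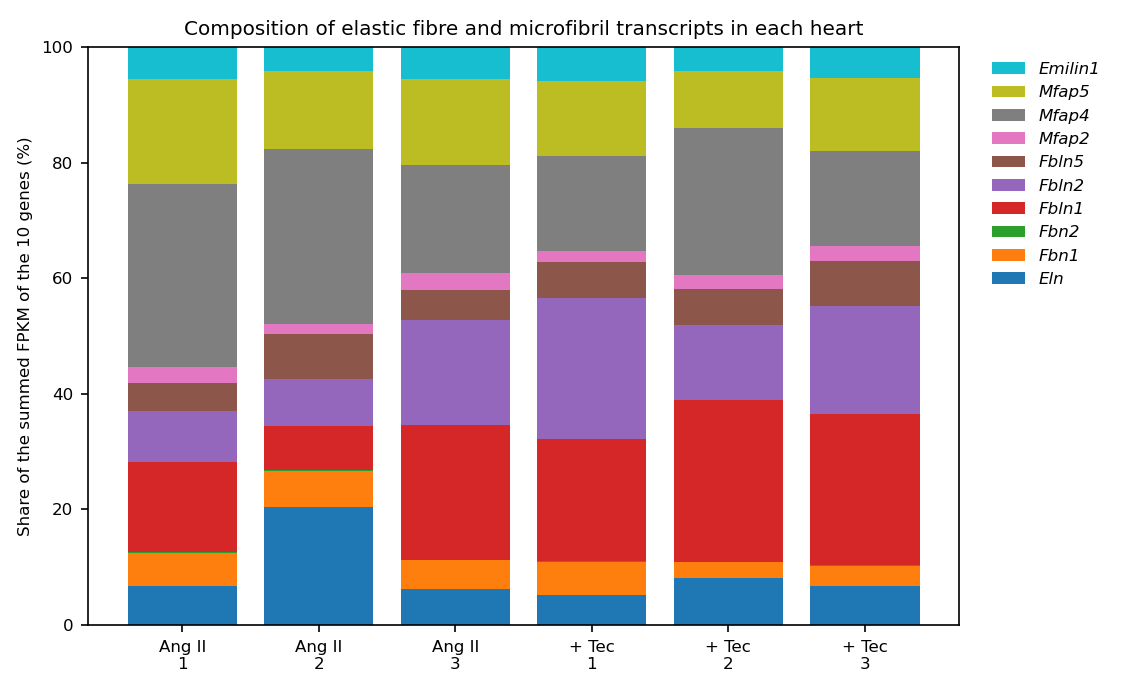
Share of each gene in the summed FPKM of the 10 genes (vertical axis, percent) in each heart, as stacked bars. Mfap4 holds the largest share in Ang II replicates 1 and 2 and Fbln1 in Ang II replicate 3 and in Ang II + Tec replicates 2 and 3, while Fbln2 holds the largest share in Ang II + Tec replicate 1.

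Ratios within a library were compared for 3 pairs. The plain ratio of Eln to Fbn1, elastin core to scaffold, was 1.15, 3.22 and 1.25 across the Ang II hearts and 0.923, 3.02 and 1.94 across the treated hearts. On the log2 scale with a pseudocount of 1 the difference was -0.07 (exact permutation test, two-sided, n = 3 per group, p = 1, adjusted over the 3 ratios 1). The ratio was highest in replicate 2 of either group. The ratio of Mfap5 to Mfap2 was 6.79, 7.62 and 5.37 across the Ang II hearts and 6.46, 4.24 and 4.81 across the treated hearts, a log2 difference of -0.65 (exact permutation test, two-sided, p = 0.2, adjusted 0.3). The plain ratio of Fbn2 to Fbn1 was 0.0181, 0.00538 and 0.0110 across the Ang II hearts and 0.0210, 0.0276 and 0.0412 across the treated hearts. It rests on Fbn2 values of few hundredths. The log2 ratio of Fbn2 to Fbn1 was 1.64 higher with Tec (exact permutation test, two-sided, p = 0.2, adjusted 0.3), and with Fbn2 near 0 and a pseudocount of 1 it follows mostly Fbn1. With 3 mice against 3 this test cannot give a p-value below 0.1, so none of the ratios could pass 0.05.

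Other genes had profiles close to those of Eln and Fbn1 over the 6 libraries. Likeness was measured as the root mean square difference of centred log2(FPKM + 1) values over 11039 tested genes with a mean of at least 1 FPKM, as a description with no test. The genes nearest to Fbn1 were Srpx2 (0.14), Meox1 (0.15), Loxl1 (0.16), Emp1 (0.19) and Col8a1 (0.20), all root mean square differences in log2 units, where Fbn1 itself varied by 1.20 around its mean. Loxl1 encodes a lysyl oxidase of elastic fibres, Meox1 a transcription factor of activated cardiac fibroblasts and Col8a1 a collagen chain. The genes nearest to Eln were farther away, namely Sfrp2 (0.32), Lgals3 (0.33), Tmem158 (0.35), Fn1 (0.36) and Adamts8 (0.37), where Eln varied by 1.55. Sfrp2 encodes a secreted Wnt modulator, Lgals3 galectin-3 and Fn1 fibronectin. Among the members, Mfap5 was the nearest to Fbn1 (0.23) and Mfap4 to Eln (0.48).

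The wider machinery of the elastic fibre was taken as 46 genes in 9 roles, of which 45 were in the table and 37 were tested. Of the 37, 35 were lower on average after Tec, where 80% of all tested genes were. Of these 37, 0 passed an adjusted p-value of 0.05 in either direction (limma, lowest 0.221), where 0.183% of all tested genes did. At an unadjusted p-value under 0.05 (limma) there were 12, all lower, where 16.5% of all tested genes were lower at that limit. The median log2 fold change of the 37 was -0.56. The groups did not overlap for 6 of the 37. Loxl2, Ltbp1, Hspg2, Mmp14 and Ctss were lower without overlap, as were 18.9% of all tested genes, and Adamtsl4 was higher. Without Ang II replicate 3, 26 of the genes passed at an adjusted p-value under 0.05, all lower, where 26.1% of all tested genes did so, and the median was -1.05.

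Among the roles, the cross-linking enzymes had the lowest median. All 4 tested lysyl oxidases were lower at an unadjusted p-value under 0.05 (limma), where 16.5% of all tested genes were. Their median was -1.69, and -2.41 without Ang II replicate 3. Lox, which cross-links elastin and collagen, had 12.2, 34.3 and 1.29 FPKM across the Ang II hearts and 0.720, 1.69 and 0.740 FPKM across the treated hearts, a log2 fold change of -2.35 (limma adjusted p-value 0.240, standard error 0.88), or -3.43 without Ang II replicate 3. Among the latent TGF-β binding proteins, which attach to fibrillin, Ltbp2 had 14.6, 22.4 and 0.820 FPKM and 0.750, 1.97 and 0.620 FPKM (-2.10, standard error 0.88, limma adjusted p-value 0.265, or -3.23 without Ang II replicate 3), and the median of the 4 genes was -0.70. For both genes Ang II replicate 3 lay among the treated hearts, far below the other Ang II hearts.

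In the pericellular scaffold (median -0.73 over 5 genes), Fn1 had a log2 fold change of -2.04 (limma adjusted p-value 0.252, standard error 0.80), or -3.00 without Ang II replicate 3. Among the proteases (median -1.002 over 5 genes, -1.58 without Ang II replicate 3) Ctsk, cathepsin K, had -1.63 (standard error 0.68, limma adjusted p-value 0.265), or -2.50 without that library. For the 3 TGF-β ligands the median was -0.68, with Tgfb3 at -1.09 (standard error 0.49), and for the 6 tested receptors it was -0.46, with the integrin subunit Itgav at -0.72 (standard error 0.30). The groups overlapped for each of these 4 genes, and the adjusted p-values of Tgfb3 and Itgav were 0.282 and 0.260 (limma). The other fibulins (median -0.17 over 3 genes), the ADAMTS and ADAMTS-like proteins (-0.30 over 4 genes) and the other EMILINs and multimerins (-0.03 over 3 genes) were closer to the median of all tested genes. Their largest log2 fold changes were those of Efemp2, which encodes fibulin-4 (-0.97, standard error 0.45), Adamtsl2 (-0.97, standard error 0.50) and Emilin2 (-0.09, standard error 0.15). Emilin2 had 7.54, 5.37 and 5.89 FPKM across the Ang II hearts and 4.99, 6.35 and 6.03 FPKM in the treated hearts, and so did not share the profile of Emilin1.

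The markers of activated fibroblasts were high in the same libraries as the genes, while those of cardiac fibroblasts were mixed. The 7 markers of activated fibroblasts (Postn, Cthrc1, Cilp, Comp, Thbs4, Meox1 and Fap) summed to 366.4, 418.8 and 27.9 FPKM across the Ang II hearts and to 19.3, 31.8 and 16.7 FPKM across the treated hearts. All 7 were lower in the treated group and none was at 0 in any library, with a median log2 fold change of -2.67 and 6 at an unadjusted p-value under 0.05 (limma, 0 at an adjusted one). Of all tested genes, 80% were lower and 16.5% were lower at that limit. The groups did not overlap for 3 of the 7 (Cthrc1, Cilp and Fap), where 18.9% of all tested genes were lower without overlap. Cthrc1 exceeded 0.5 FPKM only in the 3 Ang II hearts, so it was tested through that group alone. It is nevertheless part of these counts and of the median. Without Ang II replicate 3 it was not tested, and the median of the other 6 genes was -3.57. The 9 markers of cardiac fibroblasts, of which 8 were lower and none was at 0, summed to 1098, 1270 and 433.6 FPKM and to 474.9, 895.3 and 572.9 FPKM. Their median log2 fold change was -0.92, or -1.40 without Ang II replicate 3. The values ran from -2.75 for Col1a1, a chain of type I collagen, over -1.65 for Lum, -0.81 for Tcf21 and -0.35 for Pdgfra to 0.56 for Gsn, gelsolin. None passed an adjusted p-value of 0.05 (limma), and 4 were lower at an unadjusted one, where 16.5% of all tested genes were. Gsn was the most abundant of the 9, with 332.9, 289.3 and 226.0 FPKM across the Ang II hearts and 307.4, 605.6 and 374.96 FPKM across the treated hearts.

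Set against the fibroblast markers, the summed FPKM of the 10 genes was 20.8%, 30.1% and 12.6% of the marker sum across the Ang II hearts and 10.6%, 10.5% and 8.52% across the treated hearts. This share depended on Gsn. Without Gsn, left out after the values were seen, it was 29.9%, 38.9% and 26.4% against 30.1%, 32.5% and 24.7%, and the groups overlapped. With the 3 collagen genes left out as well it was 48.4%, 66.7% and 31.7% against 34.1%, 37.2% and 27.3%, and Ang II replicate 3 was within the treated range. These shares have no test.

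The other lists are given by their sums. The 6 endothelial markers summed to 98.7 to 106.1 FPKM in the Ang II group and to 85.5 to 94.0 FPKM in the Ang II + Tec group, and the 5 pericyte markers to 139.5 to 158.2 and 134.7 to 158.0 FPKM. Mesothelial or epicardial markers were highest in Ang II + Tec replicate 2 (18.9 FPKM) and Ang II replicate 2 (13.0 FPKM) and at most 4.63 FPKM elsewhere, with Upk1b and Krt19 listed at 0 in Ang II replicate 3. Adipocyte markers summed to 44.6 FPKM in Ang II + Tec replicate 2 and to at most 9.31 FPKM elsewhere. Among the treated hearts, Ang II + Tec replicate 2 was the highest for 7 of the 10 elastic fibre genes and tied for Fbn2, and it was the highest for the atrial, mesothelial and adipocyte sums. The 4 leukocyte markers summed to 181.9, 313.4 and 147.1 FPKM and to 116.6, 107.5 and 117.2 FPKM, so Ang II replicate 2 was the highest here too. The 3 tested ones (Lyz2, Cd68 and Csf1r) were lower in every treated heart than in every Ang II heart, Ang II replicate 3 included, with a median log2 fold change of -0.84 and adjusted p-values of 0.201 to 0.242 (limma), all 3 under 0.05 before adjustment. Their groups thus did not overlap, where those of the elastic fibre genes did. This was not particular to leukocytes, since 10 of the 58 tested markers of all lists did not overlap. The remaining leukocyte marker, Ptprc, was not tested. It had 0.62, 0.91 and 0.35 FPKM across the Ang II hearts and 0.40, 0.41 and 0.37 FPKM across the treated hearts, so Ang II replicate 3 was the lowest. Of all tested genes, 18.9% were lower without overlap and 16.5% were lower at an unadjusted p-value under 0.05 (limma). Red cell markers summed to 152.4 to 624.8 FPKM in the Ang II group and to 93.0 to 324.3 FPKM in the Ang II + Tec group, and the 3 Schwann cell markers to 1.25 to 2.01 and 0.920 to 2.48 FPKM. The part of tissue composition in the elastic fibre values was not tested.

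**Figure D5:**
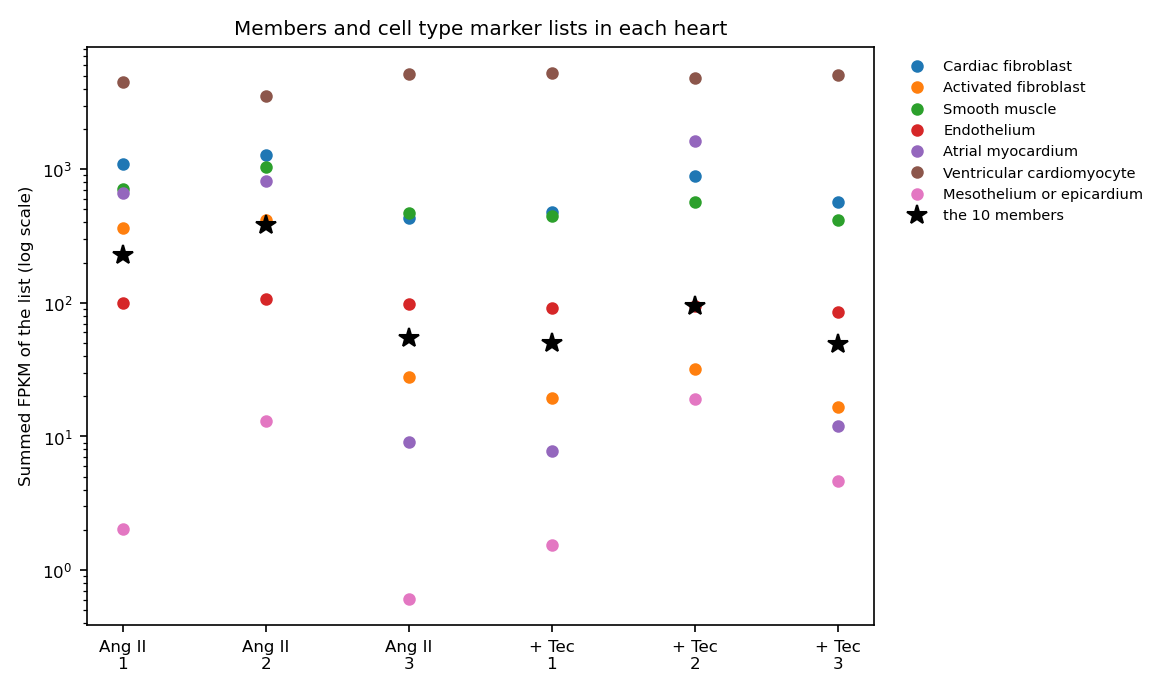
Summed FPKM (vertical axis, log scale) of the 10 elastic fibre and microfibril genes (stars) and of 7 lists of cell type markers (points) in each heart. The stars and the activated fibroblast points are high in Ang II replicates 1 and 2 and low in the other 4 hearts, the endothelial points stay between 85.5 and 106.1 FPKM, and the atrial points are high in Ang II replicates 1 and 2 and Ang II + Tec replicate 2.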

How the data were processed

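RNA of 3 Ang II and 3 Ang II + Tec hearts was poly(A)-selected and sequenced as paired ends. The authors trimmed reads with Cutadapt and deposited FPKM per gene and library. The submitters' processing notes name Bowtie 0.12.2, HISAT2 2.0, StringTie 1.3.0 and the build mm8, with no roles. The deposited coordinates, however, are the same as in GENCODE M21 on GRCm38 for 86.8% of 30832 shared genes, and the starts of all 10 genes match, so GRCm38 is the build given here. FPKM are not counts. They keep no read totals, and their rounding to hundredths left no clear read steps, so depth is unknown and no counting interval was computed. Errors are the spread over separate hearts, and no batch is stated.

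Genes at 0.5 FPKM or more in at least 3 libraries (13089) were fitted with limma 3.58.1 (R 4.3.3; lmFit and eBayes with a trend) on log2(FPKM + 1), without covariates, with Benjamini-Hochberg adjustment. On simulated data of 12866 genes, 191 of 200 genes changed by 2 on the log2 scale were recovered with 3 false calls. The simulated spread was drawn separately for each gene, with no shift shared by the genes of a library. The changed genes had a mean log2(FPKM + 1) above 3. The recovery therefore does not give the power for genes that vary together between libraries, as the members did. Ratios were tested with exact permutation (scipy 1.17.1). Figures used matplotlib 3.10.9. The genes named are the 10 members, in each role of the wider list the tested gene with the largest change, and the 5 genes nearest to Eln and to Fbn1. Genes of the wider list whose groups did not overlap are also named. Marker genes beyond this were chosen after their values were seen. Members and lists were chosen with earlier results of these data known. Alternatives changed the pseudocount, filter, scaling, block, variance trend and weights, and left out each library.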

Additional observations from a re-analysis of the deposited data

How the results depend on the processing

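Each of the 9 tested genes stayed lower with Tec under all 16 alternatives (144 values). These values come from the same libraries and are not independent. Since Ang II replicates 1 and 2 exceeded every treated heart for each gene, the sign had little room to change. Leaving out 1 library, 0 to 8 genes were called and 0 to 8 passed an adjusted p-value of 0.05 (limma), the 8 in each case without Ang II replicate 3, and the median ranged from -1.91 to -0.80. Array weights gave 8 called, 8 past the adjusted p-value and a median of -2.04, with 3.6% of all tested genes called lower, but their estimation stopped before converging and gave Ang II + Tec replicate 3 a weight of 9.96 against 0.118 for Ang II replicate 1. Rescaling by the median of ratios moved the median of all genes from -0.17 to 0.01 and that of the 9 to -1.03, with 5 at -1 or below. Quantile normalization gave 0.02 and -1.03.

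The log2 ratio of Eln to Fbn1 changed sign with a pseudocount of 0.1 (0.0539), and without 1 library it ranged from -0.40 to 0.41. Without 1 library, that of Fbn2 to Fbn1 ranged from 1.05 to 2.36 and that of Mfap5 to Mfap2 from -0.92 to -0.47. With pseudocounts of 0.1 and 0.5 the difference for Fbn2 to Fbn1 was 1.63 and 1.72. The p-value was then 0.1 in each case (exact permutation test, unadjusted), the lowest this test can give. The cause was not tested.

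With the replicate number as a block, the median stayed at -1.24 and 0 of the 9 passed an adjusted p-value of 0.05, with 8 at an unadjusted one (22.9% of all tested genes lower) and 22 genes called in all, against 21. Deviations of same-numbered libraries correlated at -0.039, 0.43 and 0.38 across genes, for replicates 1, 2 and 3. The labels state no pairing, so the numbers were not taken as pairs.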
